A study of Mus musculus with 157 samples.

Results

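The mRNAs of the 5 NF-kB subunits (Nfkb1, Nfkb2, Rel, Rela and Relb), of 4 members of the IkB inhibitor family (Nfkbia, Nfkbib, Nfkbie and Bcl3) and of the feedback deubiquitinase Tnfaip3 were followed through polysome gradients of activated mouse B cells. A gene was a member when its name in the count table equalled 1 of these 10 symbols, and all 10 were found among the 19600 genes of the table. The rule reads the symbols alone, but the genes were proposed with earlier results of these data known.

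NF-kB is a family of transcription factors that act as pairs of subunits. In a resting cell the pairs are held in the cytoplasm by IkB proteins. Stimuli such as lipopolysaccharide (LPS) switch on the IkB kinase complex, the IkB proteins are degraded, and the freed pairs enter the nucleus. Rel (c-Rel) and Rela (p65) are the main activating subunits of the canonical pathway, Nfkb1 encodes the p105 precursor of p50, and Nfkb2 (p100, the precursor of p52) and Relb belong to the non-canonical pathway. Several targets of NF-kB encode its own inhibitors, among them Nfkbia (IkB alpha) and Tnfaip3 (A20), which closes a negative feedback loop. In B cells the pathway serves survival, activation and antibody responses, and DNA breaks can engage it through the kinase ATM.

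Primary B cells were purified from the spleens of C57BL/6Babr mice, for which the study's methods give an age of 8 to 12 weeks, and all cells were activated in culture with LPS at 10 µg/ml. The LPS group had 48 h of LPS and no further agent, and no vehicle control is named for it in the labels. The LPS+ET group then had etoposide, a topoisomerase II poison that leaves double-strand DNA breaks, at 20 µM for 4 h. The labels name no further 4 h of culture for the LPS group. A difference in culture time therefore cannot be told apart from an effect of etoposide. The LPS+ET+KU group had 47 h of LPS according to the labels and the ATM inhibitor KU55933 at 10 µM for 1 h before the same etoposide treatment. No group had the inhibitor without etoposide, so an effect of the inhibitor by itself cannot be told apart from its effect on damaged cells. All cells were exposed to cycloheximide, which holds ribosomes on mRNA, at 100 µg/ml for 3 min before lysis. Each treatment had 4 gradients, and each gradient gave 13 libraries of single fractions numbered from 4 to 16. Fractions 4 to 7 held monosomes, 8 to 10 light polysomes and 11 to 16 heavy polysomes. A gradient is named here by its treatment and by the tag (LUL15 to LUL18) in its column names, here called the library pool. Each pool held 1 gradient of every treatment. The labels do not say what the tag stands for. By their titles the LUL15 libraries are replicate 1 and the LUL17 libraries replicate 3, while LUL16 and LUL18 fit more than 1 replicate number. Biological replicate and sequencing batch therefore cannot be told apart in a difference between pools. The labels do not say which animals went into which gradient, so the p-values measure the spread between gradients.

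Gradient totals ran from 6404957 to 21449781 counts, and single libraries from 14724 to 4170688 (median 811932). The LPS+ET gradient of pool LUL16 was the shallowest and had 30.4% of its counts in heavy polysomes, against 37.6% to 68.2% in the other 11. Cdkn1a, the p53 target that encodes the cell cycle inhibitor p21, served as a check of the damage response. Its mean level, in counts per 1e6 counts of a gradient (CPM), was 28.4 for LPS, 705 for LPS+ET and 648 for LPS+ET+KU, and its log2 fold change over LPS was 4.64 with etoposide and 4.51 with the inhibitor added. All 6 B cell markers were present in every treatment. Summed over these markers, the 4 LPS gradients had 2059 to 2716 CPM, the LPS+ET gradients 1565 to 2025 CPM and the LPS+ET+KU gradients 1788 to 2469 CPM. Summed levels over the 12 gradients were 0.535 to 4.80 CPM for 6 T cell markers, 0.131 to 1.77 CPM for 2 NK cell markers and 0 to 1.24 CPM for 2 erythroid markers, of which Alas2 was at 0 in LPS. The erythroid sum was at most 0.0724 CPM in LPS and at least 0.781 CPM in LPS+ET. The 4 dendritic cell markers had sums of 10.4 to 13.0 CPM with LPS alone, 11.4 to 19.2 CPM after etoposide and 16.3 to 32.1 CPM with the inhibitor, so the last group lay above all LPS gradients. In the same order the 8 myeloid markers (Mpo was at 0 in LPS) summed to 32.5 to 87.2, 45.9 to 163 and 30.1 to 121 CPM, and the 4 plasma cell markers to 217 to 412, 175 to 963 and 96.8 to 565 CPM. The part of these other cells in the results below was not tested.

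A count here is a tag from the 3′ end of an mRNA, so a CPM does not scale with the length of the gene and levels of different genes can be set side by side. In the GRCm38 coordinates of the count table the subunit genes lie at chr3:135584655-135691547 (Nfkb1, minus strand), chr19:46304737-46312090 (Nfkb2, plus), chr11:23741514-23770970 (Rel, minus), chr19:5637483-5648130 (Rela, plus) and chr7:19606217-19629438 (Relb, minus). The inhibitor genes lie at chr12:55489411-55492647 (Nfkbia, minus), chr7:28758251-28767512 (Nfkbib, minus), chr17:45555716-45563169 (Nfkbie, plus), chr7:19808462-19822770 (Bcl3, minus) and chr10:19000910-19015657 (Tnfaip3, minus). For 9 members the main counted site was in the 3′UTR and within 38 bases of an annotated transcript end. Rel was the exception. Its main site was in the 3′UTR but 4881 bases from the nearest transcript end in GENCODE M21, where Rel runs beyond the locus given in the count table, and a further site with 6.84% of its counts was intronic. Nfkbia had a second site 480 bases upstream of its main one that took 7.44% of its counts, and Nfkbie had 4 sites, the main one with 66.0%. No counted site of a member lay inside another annotated gene on either strand.

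The promoters of the members were searched for the kB consensus, the 10-base element that NF-kB pairs bind, on both strands of the RefSeq window from 250 bases before to 50 bases after the transcript start (GRCm38.p6). The table held a promoter for 8 members, and Nfkb1 and Relb were not in it. A match was found for 6 of these 8, and 3 of them (Nfkb2, Rel and Tnfaip3) had 2 or more in a single promoter, counting overlapping matches on opposite strands for Nfkb2 and Rel. Over all 27025 genes in the table, 5.14% had a promoter with a match. Counted over its 32851 promoters, 4.51% held a match and 0.554% held 2 or more. Rela and Nfkbib, the subunit and the inhibitor without a match, lack these letters only within this window. The matches are printed because the genes of the feedback loop are themselves textbook NF-kB targets. Each line reads 5′ to 3′ along the strand of the gene, with the match in capitals and 10 bases of flank on both sides, and of 2 overlapping matches 1 is printed.
Nfkb2, 39 bases before the start, chr19:46304688-46304717, plus strand: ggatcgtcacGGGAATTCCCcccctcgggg
Nfkb2, 11 bases before the start, chr19:46304716-46304745, plus strand: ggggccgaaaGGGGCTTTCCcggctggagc
Nfkb2, second promoter, 236 bases before its start, chr19:46305449-46305478, plus strand: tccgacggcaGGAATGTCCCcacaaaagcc
Nfkb2, second promoter, from position 10 after its start, chr19:46305695-46305724, plus strand: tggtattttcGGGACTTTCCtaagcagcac
Rel, 92 bases before the start, chr11:23771042-23771071, minus strand: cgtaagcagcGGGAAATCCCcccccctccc
Nfkbia, 29 bases before the start, chr12:55492657-55492686, minus strand: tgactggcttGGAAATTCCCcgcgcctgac
Nfkbie, 106 bases before the start, chr17:45555584-45555613, plus strand: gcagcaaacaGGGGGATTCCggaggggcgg
Bcl3, from position 2 after the start, chr7:19822734-19822763, minus strand: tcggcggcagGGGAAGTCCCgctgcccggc
Tnfaip3, 125 bases before the start, chr10:19015516-19015545, minus strand: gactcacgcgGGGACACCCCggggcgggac
Tnfaip3, 12 bases before the start, chr10:19015403-19015432, minus strand: aatttccatcGGAAATCCCCctgttggcaa
A match is a description of the sequence and was not measured as binding in these cells.

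The inhibitors Nfkbia and Nfkbib were the most abundant members on ribosomes and Rel the least. In LPS, Nfkbia stood at 866 ± 54.3 CPM (SD, n = 4), above 98.8% of the 12755 genes tested, and Nfkbib, which encodes IkB beta, at 770 ± 107 CPM. The gradients of these mRNAs overlapped, and both lay clear of every other member. Bcl3, an IkB family protein that works in the nucleus with p50 and p52, followed with 193 ± 16.1 CPM, and overlapped Nfkb2 with 179 ± 27.9 CPM. Nfkb1 came next at 61.2 ± 29.1 CPM without reaching that pair. From Nfkb1 downwards, each gene overlapped the next in the order Nfkbie (IkB epsilon, 23.5 ± 7.86 CPM), Rela (22.6 ± 6.69), Relb (12.3 ± 0.99) and Tnfaip3 (10.3 ± 1.89). Rel was lowest at 4.12 ± 1.00 CPM, above 30.2% of genes and below all gradients of Tnfaip3, but the distance of its counted sites from annotated ends limits this comparison. With etoposide the order altered in that Nfkb2 (256 ± 105 CPM) stood above Bcl3 (157 ± 31.6 CPM) and Rela above Nfkbie, both with overlapping gradients. Nfkbia also lay clear of Nfkbib there, while their gradients overlapped under the other treatments.

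**Figure D1:**
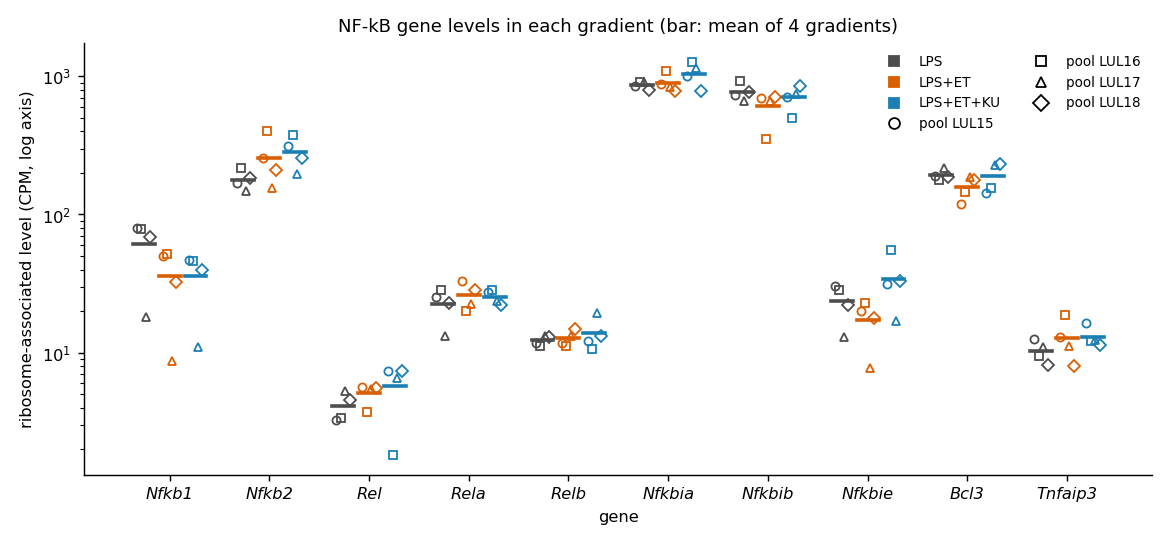
Ribosome-associated level of each gene (CPM, log axis) in the 12 gradients, coloured by treatment and shaped by library pool, with bars at the mean of 4 gradients. The means of Nfkbia and Nfkbib lie on top and that of Rel at the bottom in all treatments, and the LUL17 gradients of Nfkb1 (18.1 CPM in LPS) and Nfkbie sit below the other pools.

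The first comparison asked whether DNA damage altered the level of each mRNA among ribosome-bound mRNAs, and whether ATM inhibition altered that response. These levels are relative to the other genes and weigh each fraction by the depth of its library. A change in the total mRNA on ribosomes can therefore not be read from them. For each gradient the counts of its 13 fractions were added up and tested with edgeR's quasi-likelihood test. A gene is named called below when its Benjamini-Hochberg adjusted p was under 0.01. None of the 10 members was called in LPS+ET against LPS, where 12.7% of all 12755 genes were. The same held for LPS+ET+KU against LPS (10.7% of genes) and for the comparison of both etoposide groups (0.455% of genes). DESeq2 called no member either, beside 15.6%, 16.4% and 3.15% of genes. No member had gradients that were apart from those of the other group, as 27.5%, 26.4% and 8.57% of genes had. At an unadjusted p under 0.05 the counts were 0, 1 (Nfkb2) and 1 (Nfkbie) members. The median log2 fold change of the members was 0.05, 0.22 and 0.16 in these comparisons, beside 0.03, 0.09 and 0.04 over all genes. In bulk libraries, a smaller share of expressing cells and less mRNA per cell cannot be told apart. The comparisons share their control gradients, so their values are given side by side and not as independent results. Where a member differed in the same direction in all 4 pools, the share of all genes that did so was not counted. Such agreement is therefore a description.

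Nfkb1 was lower after etoposide in all 4 pools, and 1 pool stood far below the others. In LPS it stood at 79.3, 78.2, 18.1 and 69.0 CPM in pools LUL15 to LUL18. The LPS+ET gradients had 50.4, 51.6, 8.71 and 32.4 CPM. Those with the inhibitor had 46.5, 45.9, 10.9 and 39.5 CPM. The LUL17 gradient was the lowest of its group in each treatment, so the groups overlapped, while within every pool both etoposide gradients were below the LPS gradient. The log2 fold change was -0.78 (SE 0.56, adjusted p = 0.371) for LPS+ET and -0.78 (SE 0.56, adjusted p = 0.340) for LPS+ET+KU against LPS by edgeR. With the library pool as a term, Nfkb1 fell by 0.84 (edgeR adjusted p = 0.000216) and by 0.77 (adjusted p = 0.000447) on the log2 scale. The LPS+ET+KU and LPS+ET gradients differed by a log2 fold change of -0.00069 (SE 0.56) without and 0.065 with the pool term.

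Nfkb2 moved the other way. Its levels in pools LUL15 to LUL18 were 169, 215, 149 and 183 CPM with LPS alone. They were 255, 402, 156 and 210.1 CPM after etoposide, and 311, 375, 197 and 257 CPM with the inhibitor added. Every pool was higher with etoposide than without, yet the groups overlapped. The log2 fold change over LPS was 0.51 (SE 0.28, adjusted p = 0.212) in LPS+ET and 0.67 (SE 0.28, adjusted p = 0.0972) in LPS+ET+KU by edgeR. With the pool term it was 0.44 (adjusted p = 0.0287) and 0.64 (adjusted p = 0.00354), and the second of these passed the threshold. Nfkb1 and Nfkb2, the genes of the precursor subunits, thus had values of opposite sign against LPS in every pool.

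The other subunits showed smaller differences. Rela stood at 22.6 ± 6.69, 26.1 ± 5.89 and 25.4 ± 3.01 CPM under the 3 treatments in this order, and Relb at 12.3 ± 0.99, 12.8 ± 1.71 and 13.9 ± 3.82 CPM. Their log2 fold changes over LPS lay between 0.05 and 0.21 with SEs of 0.20 to 0.23. Rel had 24 to 100 counts per gradient and stood at 4.12 ± 1.00, 5.10 ± 0.90 and 5.79 ± 2.67 CPM. Its log2 fold change over LPS of 0.33 (SE 0.37) and 0.49 (SE 0.37) was within the spread of gradients. Rel was nevertheless higher in LPS+ET than in LPS in every pool, on these few counts.

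Among the inhibitors, Nfkbie differed most between the etoposide groups. In pools LUL15 to LUL18 it stood at 30.4, 28.5, 13.0 and 22.03 CPM with LPS alone. After etoposide it stood at 20.1, 22.9, 7.72 and 17.8 CPM, and with the inhibitor at 31.2, 55.5, 17.1 and 33.1 CPM. Within each pool LPS+ET was the lowest of the 3 treatments and LPS+ET+KU the highest, although LUL17 was low throughout and the groups overlapped. LPS+ET+KU exceeded LPS+ET by a log2 fold change of 1.01 (SE 0.39, adjusted p = 0.207 by edgeR). With the pool term the value was 0.99 and passed the threshold (edgeR adjusted p = 0.00116). Its log2 fold change over LPS was -0.47 (SE 0.39) without and 0.54 (SE 0.38) with the inhibitor, and neither passed with or without the pool term. With the pool term 1, 2 and 1 members were called in the 3 comparisons in the order above, next to 26.7%, 28.1% and 6.36% of all genes.

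Nfkbia was the steadiest of the abundant members in LPS, with 855, 903, 913 and 794 CPM in pools LUL15 to LUL18. After etoposide it stood at 885, 1084, 840.4 and 779.7 CPM, and with the inhibitor at 999.5, 1261, 1142.5 and 783 CPM. The log2 fold change over LPS was 0.05 (SE 0.18) and 0.27 (SE 0.18), neither past the threshold. Nfkbib stood at 770 ± 107, 604 ± 171 and 703 ± 147 CPM, and its LPS+ET mean was set low by pool LUL16 (350 CPM against 667 to 709 in the other pools). In that gradient the libraries of fractions 11 and 12 held only 54686 and 33476 counts, against 1686294 to 2146451 in the other LPS+ET gradients. Nfkbib peaked in fraction 11 in LPS, and the part of library depth in its low value was not tested. Bcl3 stood at 193 ± 16.1, 157 ± 31.6 and 190 ± 47.5 CPM, lower in LPS+ET than in LPS in all 4 pools (log2 fold change -0.29, SE 0.21). Tnfaip3, which trims ubiquitin chains from signalling proteins upstream of the IkB kinase, stood at 10.3 ± 1.89, 12.8 ± 4.52 and 13.1 ± 2.26 CPM. Its log2 fold change over LPS was 0.30 (SE 0.25) and 0.34 (SE 0.25), within the spread of gradients. Tnfaip3 was nevertheless higher in LPS+ET+KU than in LPS in every pool.

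**Figure D2:**
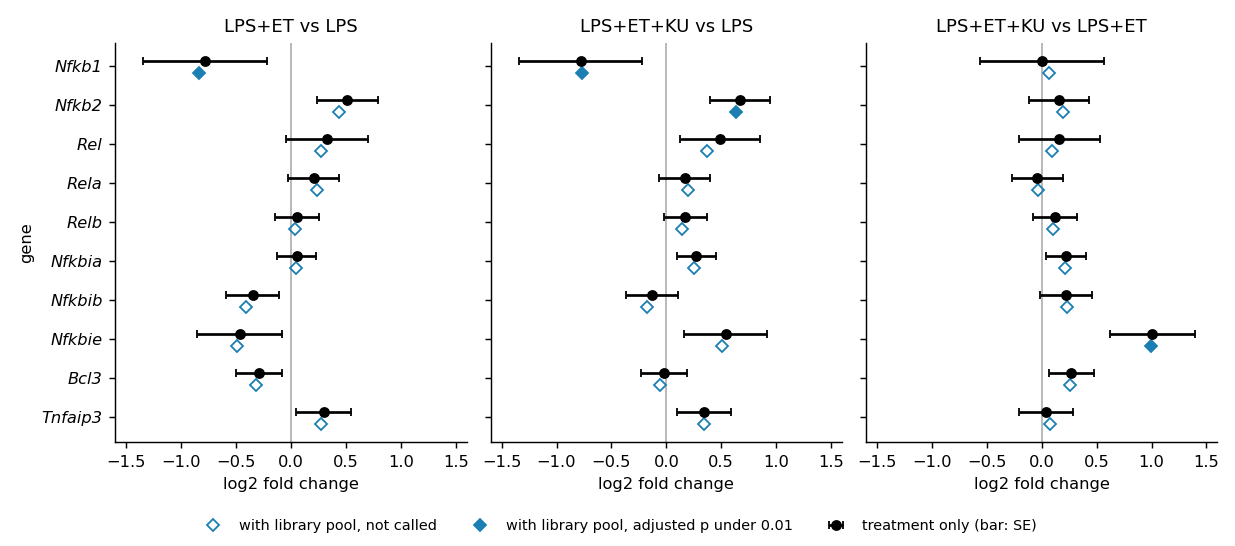
Log2 fold change of ribosome-associated mRNA for each gene in the 3 comparisons. Circles with SE bars are the fit with treatment alone and diamonds the fit that adds the library pool, filled where the adjusted p is under 0.01. The filled diamonds are Nfkb1 (-0.84 and -0.77 against LPS), Nfkb2 (0.64) and Nfkbie (0.99).

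The second comparison asked where along the gradient each mRNA sat, as a measure of how many ribosomes it carried. Fraction shares were computed after each library was scaled to the same total, because equal RNA concentrations had gone into the libraries and their totals do not measure the mRNA of a fraction. Each fraction thus weighs the same, and a share is one of scaled counts and not of the molecules of an mRNA. RiboLoad, here the share of the scaled counts in heavy polysomes, was taken for the 9 members with at least 100 counts per gradient on average, which left out Rel. The study defines RiboLoad on the reads of a transcript and names no such scaling. With counts as deposited the median gene in LPS had 64.3%. In LPS it was 73.8% ± 1.07 for Nfkb2 and 72.4% ± 3.63 for Nfkb1 (SD, n = 4), higher than in 89.7% and 87.4% of the 8000 genes with such counts. Rela had 66.3% ± 13.3, Nfkbib 63.9% ± 3.00, Relb 58.9% ± 8.89 and Nfkbie 53.8% ± 6.58. Tnfaip3 followed with 44.2% ± 2.25, Nfkbia with 42.1% ± 0.91 and Bcl3 with 31.2% ± 2.73. The median gene had 55.2%. The means of the 4 measured subunits and of Nfkbib were above it, that of Nfkbie was close to it, and those of Tnfaip3, Nfkbia and Bcl3 were below it. Bcl3 exceeded only 12.4% of genes. The length of the coding sequence, which limits how many ribosomes fit on an mRNA, was not taken into account. The order of genes by this share is therefore not an order of how well they are translated.

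**Figure D3:**
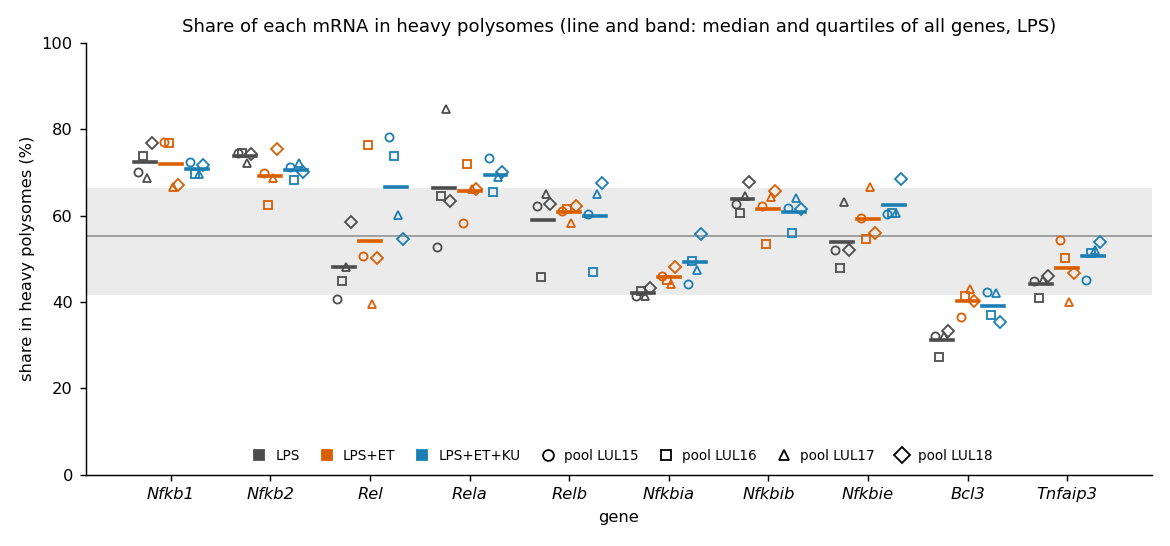
Share of each mRNA found in heavy polysomes (percent of the scaled counts of fractions 4 to 16) in the 12 gradients, with bars at the mean of 4 gradients. The grey line and band are the median (55.2%) and quartiles of 8000 genes in LPS. Bcl3 lies lowest and its LPS gradients (27.2% to 33.4%) are below all gradients of the etoposide groups, and Rel is drawn although its counts were too few for a test.

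The profiles over single fractions differed in shape. In LPS, Nfkb1 and Nfkb2 peaked in fraction 14, with 19.9% and 23.4% of their scaled counts, and Rela (20.6%) and Relb (17.5%) in fraction 12. The fraction 12 library of LPS LUL17 held only 32306 counts, so a few tags weigh heavily there after scaling. For Rela the SD in fraction 12 was 9.64. Its share in heavy polysomes was 84.6% in the LUL17 gradient and 52.7% to 64.4% in the other LPS gradients. Nfkbib and Nfkbie peaked in fraction 11 with 20.3% and 16.4%. Nfkbia had a maximum among the monosomes, with 11.7% in fraction 6 and 11.3% in fraction 7, and a further rise to 10.0% and 10.55% in fractions 12 and 13. Bcl3 peaked in the light polysomes, with 16.3% in fraction 9.

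**Figure D4:**
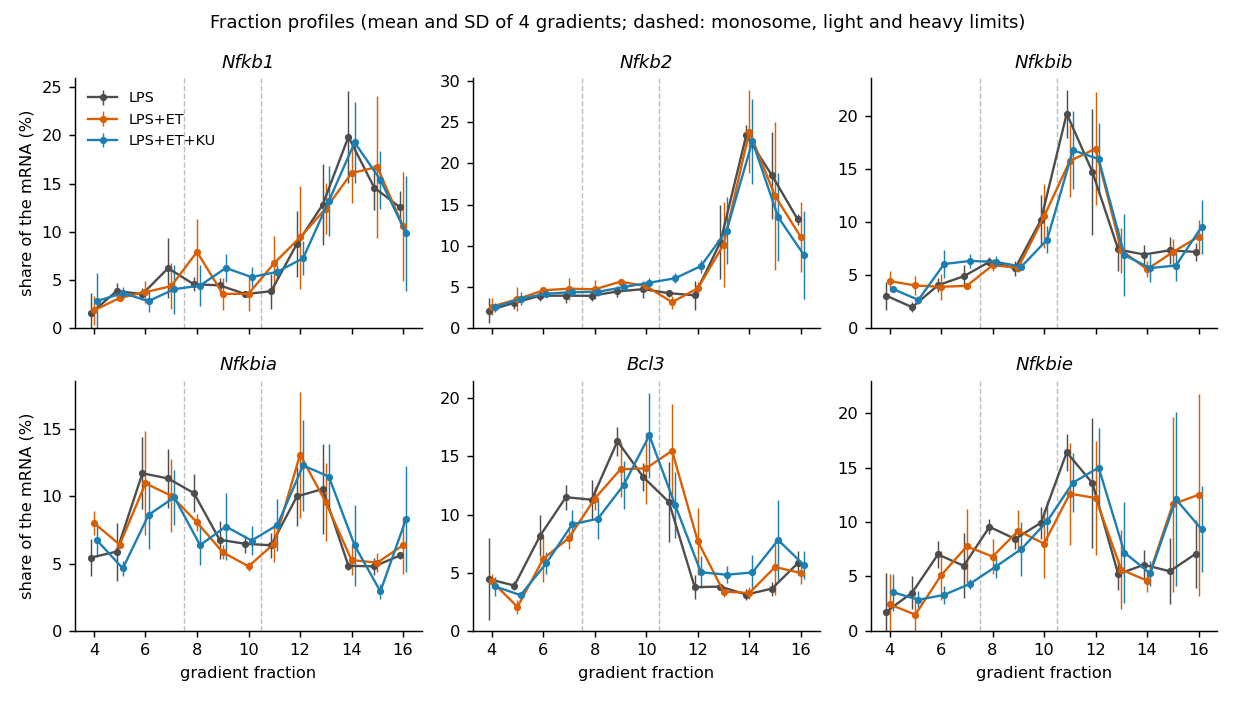
Share of the scaled counts of each mRNA (percent) in fractions 4 to 16 for 6 members, as mean and SD of 4 gradients per treatment. Dashed lines lie between monosomes, light and heavy polysomes. Nfkb1 and Nfkb2 peak in fraction 14 or 15 in each treatment, Nfkbia has a maximum on both sides of the light polysomes, and the Bcl3 peak moves from fraction 9 in LPS to fraction 11 after etoposide and 10 with the inhibitor.

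Heavy polysomes and monosomes were then compared within each gradient by edgeR, with a term per gradient. In each treatment 6 of the 10 members were called, beside 51.4%, 49.6% and 54.4% of the 11034 genes tested under LPS, LPS+ET and LPS+ET+KU respectively, so the share of members called was close to that of all genes. Nfkb1, Nfkb2, Rela and Nfkbib were higher in heavy polysomes in all treatments. Their log2 ratios in LPS were 0.90 (SE 0.17), 0.96 (SE 0.15), 0.92 (SE 0.22) and 1.15 (SE 0.15). Nfkbia was lower in heavy polysomes in all treatments, with log2 ratios of -0.91, -0.55 and -0.48 (SE 0.14 each) in the order of treatments above. Bcl3 was lower in LPS (-1.03, SE 0.15), while its ratios of -0.21 (SE 0.15) in LPS+ET and -0.40 (SE 0.15, adjusted p = 0.0159) in LPS+ET+KU did not pass. Tnfaip3 passed only in LPS+ET (-0.81, SE 0.22) and Nfkbie only in LPS+ET+KU (1.04, SE 0.19). These ratios depend on how the fractions are weighted. With equal weight for each fraction the median ratio of all genes moved from 0.11, 0.09 and 0.09 to 0.66, 0.67 and 0.72 in the 3 treatments, and the sign turned positive for Nfkbia in LPS+ET+KU, for Bcl3 in both etoposide groups and for Tnfaip3 in all treatments. Centred on the median gene, an alternative added after seeing the data, Nfkbia was -0.82, -0.82 and -0.59, Bcl3 was -0.96, -0.21 and -0.48, and Tnfaip3 was -0.07, -0.39 and -0.19. On that scale 6, 4 and 6 members were called beside 43.4%, 41.2% and 41.0% of genes, the calls of Rela in LPS+ET (0.75), of Nfkbib in LPS+ET+KU (0.39) and of Tnfaip3 in LPS+ET ended, and Bcl3 in LPS+ET+KU was called. Leaving out a single gradient ended the call of Rela in LPS (LPS LUL16, 0.77), of Tnfaip3 in LPS+ET (LPS+ET LUL17, -0.62) and of Nfkbia in LPS+ET+KU (LPS+ET+KU LUL15, -0.40, and LUL18, -0.41).

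Bcl3 was the 1 member whose heavy-to-monosome ratio was called as different between treatments. Its RiboLoad in pools LUL15 to LUL18 was 32.1%, 27.2%, 32.02% and 33.4% with LPS alone. It was 36.5%, 41.3%, 43.1% and 40.1% after etoposide, and 42.2%, 36.98%, 42.03% and 35.4% with the inhibitor. All 8 etoposide gradients were above all 4 LPS gradients, by 9.08 and 7.99 percentage points on average for the groups without and with the inhibitor. The exact two-sided permutation test gave p = 0.0286 in both cases, the smallest p that 4 gradients against 4 allow, and 0.154 after adjustment over 27 tests. Groups that did not overlap in this direction were found for 4.89% and 6.78% of all genes. The heavy-to-monosome ratio of Bcl3 rose in LPS+ET against LPS by a log2 value of 0.82 (SE 0.21, edgeR adjusted p = 0.00946), where 5.1% of genes were called and 1.63% were called higher. With the pool term the adjusted p was 0.00112 (9.04% of genes called). With equal weight for each fraction the value was again 0.82 but missed the threshold (limma adjusted p = 0.0162, 2.06% of genes called), as did the centred value of 0.76 (adjusted p = 0.0236, 2.5% of genes called). The call did not hold without each of the LPS gradients (0.70 to 0.92), without the LUL17 (0.71) or LUL18 (0.83) gradient of LPS+ET, and without those of LUL15 (0.85) or LUL17 (0.82) of LPS+ET+KU. In LPS+ET+KU against LPS the ratio was higher by 0.63 (SE 0.21, adjusted p = 0.0425), and it passed with the pool term (adjusted p = 0.0075), where 5.38% of genes were called without and 9.34% with that term. The groups of the etoposide treatments overlapped, and their ratios differed by -0.19 (SE 0.21, 0.181% of genes called).

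By class of fraction, the difference of Bcl3 was largest in monosomes. There it stood at 171, 174, 183 and 178.5 CPM in the LPS gradients of pools LUL15 to LUL18, and at 90.7, 72.2, 91.6 and 110.6 CPM in those of LPS+ET. No LPS+ET gradient reached the lowest LPS gradient. The log2 fold change was -0.89 (SE 0.23) with an edgeR adjusted p of 0.0133, which missed the threshold, next to 9.52% of genes called. DESeq2 (adjusted p = 0.00117, 10.2% of genes called) and the fit with the pool term (-0.91, adjusted p = 1.89e-05, 24.6% of genes called) called it, as did the fits without LPS+ET+KU LUL16 or LUL17 (adjusted p = 0.00522 and 0.00939). Groups without overlap in this direction were found for 11.0% of genes. In light polysomes Bcl3 stood at 291 ± 28.8 and 258 ± 35.1 CPM in LPS and LPS+ET, and in heavy polysomes at 130 ± 27.5 and 125 ± 48.5 CPM, differences within the spread of gradients. In LPS+ET+KU its monosome level was 137 ± 29.04 CPM, between the other treatments.

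Nfkbia also had a larger share in heavy polysomes after etoposide. Its RiboLoad was 41.4%, 42.5%, 41.4% and 43.3% with LPS alone in pools LUL15 to LUL18. It was 46.0%, 45.0%, 44.3% and 48.1% after etoposide, and 44.1%, 49.5%, 47.5% and 55.8% with the inhibitor. The LPS gradients lay below all others, by 3.72 and 7.11 percentage points on average (exact two-sided permutation p = 0.0286, adjusted p = 0.154 for both), as for 4.89% and 6.78% of all genes. When the counts were taken as deposited and not scaled per library, the differences of Nfkbia became 7.60 and -1.90 points and those of Bcl3 5.49 and 1.88 points, and in all 4 cases the groups overlapped. The heavy-to-monosome ratio of Nfkbia differed by 0.36 (SE 0.20) and 0.43 (SE 0.20, adjusted p = 0.155) in the edgeR fit and was not called with the pool term either.

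Nfkb2 stood at a higher level in monosomes and light polysomes of LPS+ET+KU than of LPS, without overlap. In monosomes the values of pools LUL15 to LUL18 were 87.3, 92.6, 58.1 and 87.1 CPM in LPS and 169.8, 248, 102 and 124 CPM in LPS+ET+KU. The log2 fold change was 0.95 (SE 0.28, edgeR adjusted p = 0.0318) in monosomes and 0.88 (SE 0.28, adjusted p = 0.0471) in light polysomes, beside 5.96% and 7.13% of genes called. Groups without overlap in this direction made up 11.5% and 17.7% of genes. LPS+ET against LPS gave 0.83 (SE 0.28) and 0.76 (SE 0.28), and with the pool term all 4 values passed the threshold (adjusted p of 8.68e-05 to 0.000629), beside 24.6% and 25% of genes for LPS+ET and 23.2% and 24.1% for LPS+ET+KU. In heavy polysomes, where most scaled counts of Nfkb2 lay, the log2 fold change over LPS was 0.66 (SE 0.39) and 0.74 (SE 0.39) and passed in neither fit. Its RiboLoad was 3.35 percentage points lower in LPS+ET+KU than in LPS without overlap, but the lowest LPS and the highest LPS+ET+KU gradient both stood at 72.2% (exact permutation p = 0.0286, adjusted p = 0.154). With the counts as deposited the difference was -8.84 points and the groups overlapped (exact permutation p = 0.114). In all, 9.47% of genes had groups apart in that direction.

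Nfkbie was higher in LPS+ET+KU than in LPS+ET in every pool and in each class of fractions. In pools LUL15 to LUL18 its level in heavy polysomes was 23.4, 19.5, 9.44 and 19.5 CPM in LPS+ET, and 41.9, 84.7, 22.8 and 46.8 CPM in LPS+ET+KU. The groups overlapped, since the LUL17 gradient of LPS+ET+KU lay below the LUL15 gradient of LPS+ET. The log2 fold change was 1.39 (SE 0.39, edgeR adjusted p = 0.0868), with 0.572% of genes called, and it passed with the pool term (1.29, adjusted p = 0.00196, 3.27% of genes called). In light polysomes it was 0.73 (SE 0.47) and in monosomes 0.58 (SE 0.40), with means of 19.7 against 34.9 CPM and of 9.18 against 14.8 CPM, and neither passed in either fit. The share of Nfkbie in heavy polysomes was 59.2% ± 5.41 without and 62.5% ± 3.91 with the inhibitor, with overlap (exact permutation p = 0.400), and the heavy-to-monosome ratio differed by 0.59 (SE 0.33, edgeR adjusted p = 0.475), which did not pass. Against LPS the heavy polysome value was 0.91 (SE 0.38, 7.95% of genes called), which passed with the pool term only (0.84, adjusted p = 0.00673, 21.4% of genes called). The heavy-to-monosome ratio of Nfkbie was higher in LPS+ET+KU than in LPS by 0.97 (SE 0.29, adjusted p = 0.0219), and passed with the pool term (adjusted p = 0.00536) and without LPS+ET LUL16 or LPS+ET+KU LUL15. With equal weight for each fraction, centred, it was 0.35 (limma adjusted p = 0.552).

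**Figure D5:**
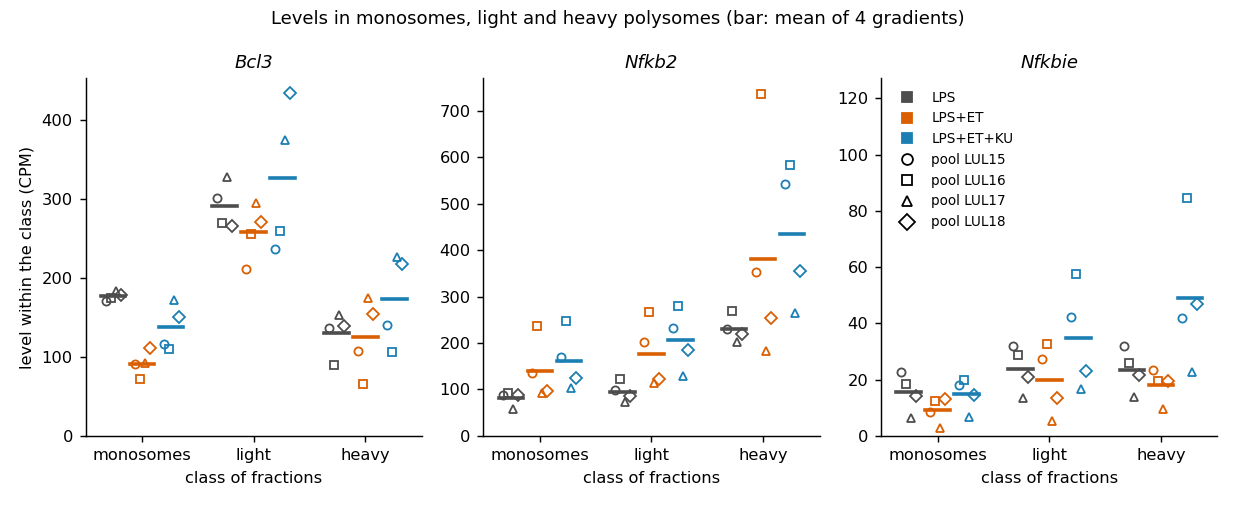
Level of Bcl3, Nfkb2 and Nfkbie within monosomes, light and heavy polysomes (CPM of the summed counts of the class) in the 12 gradients, with bars at the mean of 4 gradients. The monosome values of Bcl3 are 171 to 183 CPM in LPS and at most 110.6 CPM in LPS+ET, and the heavy polysome values of Nfkbie in LPS+ET+KU reach 84.7 CPM.

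In monosomes Nfkb1 passed with the pool term as well. Against LPS its log2 fold change was -0.85 (edgeR adjusted p = 0.00319) without and -0.69 (adjusted p = 0.00575) with the inhibitor. Without that term the edgeR fit of all gradients gave no call for any member in any class of fractions or comparison. The calls of Bcl3 in monosomes by DESeq2 and by fits without 1 gradient are given above. The shares of genes not yet given were 9.69% for LPS+ET against LPS in heavy and 10.6% in light polysomes, and 0.213% and 0.292% between the etoposide groups in monosomes and light polysomes. Nfkbib in monosomes stood at 282 ± 30.1, 266 ± 24.3 and 373 ± 38.6 CPM in the order LPS, LPS+ET, LPS+ET+KU, the last without overlap with either (as in 11.5% and 4.53% of genes), at log2 fold changes of 0.39 (SE 0.15) over LPS and 0.42 (SE 0.15) over LPS+ET that did not pass. Tnfaip3 in heavy polysomes was likewise higher without overlap in LPS+ET+KU than in LPS (14.5 ± 2.88 against 8.54 ± 2.20 CPM) and not called, as 17.8% of genes were without overlap. Rel in light polysomes stood at 2.57, 2.18, 3.93 and 3.45 CPM in the LPS gradients of pools LUL15 to LUL18 and at 7.49, 4.23, 5.56 and 5.01 CPM in those of LPS+ET. The groups did not overlap, as in 16.4% of genes, on 9 to 23 counts per gradient, and the log2 value of 0.79 (SE 0.51, adjusted p = 0.309 by edgeR) did not pass in either fit. Relb in light polysomes was higher without overlap in LPS+ET+KU than in LPS+ET (13.8 ± 0.73 against 9.91 ± 1.46 CPM, as in 4.51% of genes), at a log2 fold change of 0.36 (SE 0.24) that did not pass.

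All single fractions were finally tested together by edgeR, with fraction, treatment and their interaction against fraction alone, on the libraries of each pair of treatments. This model treats the libraries of a gradient as independent. For LPS+ET against LPS it called 2 members, Bcl3 (adjusted p = 5e-05) and Nfkbib (adjusted p = 0.00496), beside 32.4% of the 10360 genes tested. The interaction alone called none of them (1.45% of genes), and the interaction with a term per gradient called Bcl3 (adjusted p = 0.00891, 6.29% of genes). For LPS+ET+KU against LPS+ET no member was called, and Nfkbie had the smallest adjusted p (0.0196), beside 7.97% of genes. With the pool term the model called 4 members for LPS+ET against LPS (Nfkb1, Nfkb2, Nfkbib and Bcl3, beside 43.6% of genes) and 3 between the etoposide groups (Nfkbia, Nfkbie and Bcl3, beside 18.3% of genes).

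Other genes of the pathway were read in ribosome-associated mRNA from 3 lists. The lists were chosen with earlier results of these data known, so their counts are descriptions and not a test of the pathway. Of 23 IkB kinase, adaptor and ubiquitin ligase genes tested, 3 were called with etoposide against LPS alone, all lower (12.7% of all genes were called). Atm itself, the kinase that KU55933 blocks, fell from 61.9 ± 11.4 to 31.3 ± 5.17 CPM (log2 fold change -0.98, SE 0.21). Traf3 fell from 38.3 ± 4.35 to 22.9 ± 1.34 CPM, and Map3k14 fell from 50.4 ± 6.90 to 31.3 ± 4.81 CPM. Map3k14 encodes NIK, the kinase that drives processing of the Nfkb2 product, and Traf3 is an adaptor that holds NIK low. Of 18 other IkB and negative regulator genes 1 was called, Cyld, a deubiquitinase, which rose from 59.4 ± 10.9 to 106.5 ± 17.3 CPM. The median log2 fold change was 0.05 and 0.10 in these lists, and 0.03 over all genes.

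The list of NF-kB target genes was likewise chosen with earlier results known, and its counts are descriptions. Of its 35 genes tested, 10 were called after etoposide, beside 12.7% of all genes. Of these 10, 6 were higher and 4 lower, and the list's median was 0.11. Tnfsf4 (OX40 ligand) rose from 0.169 ± 0.087 to 12.7 ± 5.94 CPM and Cd80, a co-stimulatory receptor ligand, from 3.34 ± 0.87 to 15.4 ± 5.04 CPM. Irf8 fell from 564 ± 68.6 to 142 ± 39.4 CPM and Nod2 rose from 2.20 ± 0.40 to 7.02 ± 1.83 CPM. In the LPS+ET+KU group 1 (Traf3, lower), 0 and 11 genes of these lists were called against LPS, the 11 with 8 higher and 3 lower, beside 10.7% of all genes. Between the etoposide groups the counts were 0, 0 and 4, and all 4 were higher with the inhibitor. These were Ccl5 (38.9 ± 13.9 to 165 ± 16.0 CPM), the co-stimulatory ligand Cd86 (28.8 ± 6.38 to 76.5 ± 18.9 CPM), Slc2a6 (10.4 ± 1.83 to 26.9 ± 3.65 CPM) and Cd83 (107 ± 6.17 to 213 ± 30.7 CPM), beside 0.455% of all genes called. The summed dendritic cell markers stood at 11.4 to 19.2 CPM without the inhibitor and 16.3 to 32.1 CPM with it, with overlap. The median sum of the B cell markers was also higher with it (1765 and 2254 CPM). Those of all other cell types were lower, for myeloid cells 96.3 and 81.7 CPM and for plasma cells 523 and 338 CPM. The part of such cells in the 4 called genes was not tested.

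The genes whose levels followed each member most closely over the 12 gradients were found among 12745 others by Pearson's r of log2 CPM. They were Trim24 for Nfkb1 (r = 0.982), Gadd45g for Nfkb2 (r = 0.963), Camta2 for Nfkbie (r = 0.952), Klhdc10 for Nfkbib (r = 0.963) and Pcbp2 for Nfkbia (r = 0.907). Rnaset2b was closest to Bcl3 (r = 0.928), Ociad1 to Rela (r = 0.911), Gm9887 to Relb (r = 0.933), Hps5 to Tnfaip3 (r = 0.927) and mt-Nd5 to Rel (r = 0.919). The gradients share treatments and library pools, and each r is the highest of many, so these are descriptions. No member was the closest gene of another, since members were left out of the search.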

How the data were processed

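Polysome fractions of LPS-activated splenic B cells were sequenced from their mRNA 3′ ends (PolyRibo-3′ RNA-seq). Per the labels and methods, the authors removed PCR duplicates by random barcodes, aligned the tags to GRCm38 with TopHat2 2.0.12 (the submitters' processing notes also name HTSeq and DESeq2 1.6.3) and assigned tags at polyadenylation sites to Ensembl genes. The deposited values are raw counts, checked to be whole, for 157 libraries and 19600 genes. Groups came from the labels. The 157 columns matched 1 sample (79) or a treatment and fraction (78), and gradients are named by the pool tag of the column. The members and gene lists were chosen with earlier results of these data known.

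Counts of fractions 4 to 16, or of a class of fractions, were summed per gradient and tested over all genes with edgeR 4.0.16 (R 4.3.3, TMM normalization, default expression filter, quasi-likelihood test, treatment only, two-sided, adjusted p under 0.01). Alternatives were DESeq2 1.42.0, no filter, library pool as a replicate block, equal weight per fraction with limma 3.58.1 (pseudocount 0.5), only the 8 compared gradients, an adjusted p under 0.05 and leaving out each gradient. Deviations from treatment means correlated at r = 0.367 to 0.850 between gradients of the same pool (12 of 12 above 0.1) and -0.656 to 0.352 between pools (8 of 36), so pools were taken to pair gradients. The pairing comes from column names. RiboLoad was compared with exact permutation tests (scipy 1.17.1, 70 splits). All 10 members, Cdkn1a, the closest gene of each member and called list genes were named, the 4 largest changes of a list first. Scripts were tested on simulated counts. The counting error of a CPM shrinks with the count behind it, from 24 counts per gradient upwards for Rel. Gene annotation was GENCODE M21.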

Additional observations from a re-analysis of the deposited data

Results flagged for a closer look

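The heavy-to-monosome ratio of Bcl3 was called as different between treatments, with a log2 value 0.82 higher in LPS+ET than in LPS (edgeR adjusted p = 0.00946). Of all genes 5.1% were called in this comparison, and 1.63% were called higher. The call ended with equal weight per fraction, without each of the LPS gradients and without some gradients of the other treatments. Single gradients stood far from the rest of their group of 4 for 7 of 57 groups tested, and chance gives about 1 in 20. For levels these were Nfkb1 in LPS of pool LUL17 (18.1 CPM, the others 69.0 to 79.3), Nfkbib in LPS+ET of LUL16 (350 CPM, the others 667 to 709), Rel in LPS+ET of LUL16 (3.76 CPM, the others 5.42 to 5.70) and Rel in LPS+ET+KU of LUL16 (1.82 CPM, the others 6.62 to 7.38). The LPS+ET LUL16 gradient had shallow libraries in fractions 11 and 12, as given above. For the share in heavy polysomes they were Nfkb2 in LPS of LUL17 (72.2%, the others 74.2% to 74.5%), Nfkbie in LPS+ET+KU of LUL18 (68.4%, the others 60.5% to 60.7%) and Relb in LPS of LUL16 (45.7%, the others 62.2% to 65.1%). The fraction 17 library of an LPS gradient, which entered no comparison, held 777 counts, of which 5 were from Nfkbib, above the limit of 3 that a count of 0 allows, and none from the other 9 members.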

How the results depend on the processing

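Depth limits Rel and, in single classes of fractions, the other scarce members. With the library pool as a replicate block, the pairing raised the number of members called from 0 to 1, 2 and 1 in ribosome-associated mRNA (LPS+ET against LPS, LPS+ET+KU against LPS, LPS+ET+KU against LPS+ET). The share of all genes called there rose too, from 12.7%, 10.7% and 0.455% to 26.7%, 28.1% and 6.36%. It raised it from 0 to 3 and 2 in monosomes and to 1 and 1 in light polysomes for both etoposide groups against LPS, and from 0 to 1 and 1 in heavy polysomes for LPS+ET+KU against LPS and against LPS+ET. For the heavy-to-monosome ratio of LPS+ET+KU against LPS the block raised the number of members from 0 to 2 (all genes 5.38% to 9.34%). In the profile model it rose from 2 to 4 for LPS+ET against LPS (all genes 32.4% to 43.6%). Between the etoposide groups it rose from 0 to 3 in that model (all genes 7.97% to 18.3%). The block changed no other call. DESeq2 called 1 member in monosomes of LPS+ET against LPS, beside 10.2% of all genes. For the ratio in LPS+ET against LPS, equal weight per fraction called 0, centred (2.5% of all genes) or not (2.06%). The interaction alone called 0 (1.45% of all genes) and, with a term per gradient, 1 member (6.29%) in the profile model of the same comparison. The cause of these differences was not tested.

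Directions (log2 values) turned as follows, for Nfkbia in LPS+ET+KU and Tnfaip3 in LPS+ET against the called direction. In ribosome-associated mRNA between the etoposide groups Nfkb1 was 0.030 without a filter, 0.065 with the block and 0.27 with equal weight, where Rela was 0.16 and Tnfaip3 -0.017. Against LPS with the inhibitor, equal weight gave Nfkbib 0.061 and Bcl3 0.044. For heavy polysomes against monosomes, equal weight without centring gave Rel 0.0030 and Tnfaip3 0.47 in LPS, Rel 0.71, Bcl3 0.40 and Tnfaip3 0.21 in LPS+ET, and Nfkbia 0.14, Bcl3 0.25 and Tnfaip3 0.54 in LPS+ET+KU. Rel in LPS+ET was 0.080 without a filter and 0.11 when centred. DESeq2 moved the median of all genes to 0.12 and 0.22 in ribosome-associated mRNA against LPS.

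Leaving out 1 gradient at a time gave 0 to 1 members in monosomes and for the ratio of LPS+ET against LPS, and 0 to 2 for the ratio of LPS+ET+KU against LPS. Values whose sign turned in these fits, none of them called in full, ranged in ribosome-associated mRNA from -0.060 to 0.11 (Nfkbia) and -0.038 to 0.10 (Relb) for LPS+ET against LPS. They ranged from -0.14 to 0.10 (Bcl3), -0.025 to 0.30 (Rela) and -0.036 to 0.28 (Relb) for LPS+ET+KU against LPS. Between the etoposide groups they ranged from -0.32 to 0.30 (Nfkb1), -0.010 to 0.47 (Nfkb2), -0.14 to 0.11 (Rela), -0.085 to 0.23 (Relb) and -0.13 to 0.28 (Tnfaip3), and for the ratio of Nfkbia from -0.050 to 0.18. For heavy polysomes against monosomes they were -2.13e-05 to 0.11 (Nfkbie in LPS), -0.49 to 0.47 (Rel in LPS+ET) and -0.24 to 0.46 (Rel in LPS+ET+KU). Of the other values for single members, 1194 kept their direction and side of the threshold.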
